A study of Mus musculus with 6 samples.

Results

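The chemokine and chemokine receptor genes of the mouse ovary were examined in RNA-seq libraries of 3 wild-type (WT, Bnc1+/+) and 3 Bnc1tr/tr samples. Genes were chosen by symbol alone, as the CC and CXC ligands (Ccl or Cxcl and a number), the CC and CXC receptors (Ccr or Cxcr and a number), Cx3cl1, Cx3cr1 and Xcl1, where 10 or more reads were counted over the 6 ovaries. Of 44788 genes listed, 56 had such a symbol and 47 reached 10 counts, 34 of them ligands and 13 receptors. The rule used no difference between the genotypes. The animals were 8 weeks old and of the C57BL/6 J strain. Bnc1tr/tr mice were homozygous for a short deletion knocked into exon 4 of Bnc1, which shifts the reading frame and leaves a premature stop codon in the transcript, and both genotypes came from matings of heterozygotes. The mutation is germline, so every cell of the ovary carries it, and the libraries hold all cell types of the organ together. Neither the labels nor the methods give the stage of the estrous cycle at which these ovaries were taken.

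Chemokines are small secreted proteins that guide cells along concentration gradients. They are grouped by the spacing of their first cysteines (C, CC, CXC and CX3C) and act through receptors with a bundle of membrane-spanning helices that signal through inhibitory G proteins. Most inflammatory ligands are induced by interferons or NF-κB and attract monocytes, neutrophils or T cells, while others, such as Cxcl12 and Ccl21, are made continuously and position stem cells, lymphocytes and dendritic cells. In the ovary, Cxcl12 and its receptor Cxcr4 are known for the migration of primordial germ cells to the gonad, and leukocytes drawn by chemokines enter the follicle wall at ovulation and the corpus luteum as it forms and regresses.

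Between 25247770 and 34406296 reads were counted on genes per ovary, and a level is given below as TMM-normalized CPM, the read count scaled to a common library total, where TMM corrects each total by a trimmed mean of gene ratios to a reference library. Few reads stood behind the low genes, since 60 to 68 counts of Cxcr3 in WT ovaries, for example, were 1.81 to 2.53 CPM. Bnc1 itself had 375, 444 and 381 counts in WT replicates 1, 4 and 7 and 527, 355 and 326 in Bnc1tr/tr replicates 1, 2 and 3, a log2 fold change of 0.12 ± 0.18 (SE; edgeR, Benjamini-Hochberg adjusted p = 0.733), and counts per gene do not show the deletion. Markers of granulosa cells, theca and stroma, corpus luteum and oocytes were present in every library. All 7 corpus luteum markers tested fell in Bnc1tr/tr, to summed levels of 6939 to 12370 CPM from 22584 to 26346 CPM in WT. Oviduct markers stood at 149 CPM in WT replicate 1 and 542 CPM in Bnc1tr/tr replicate 3, against 36.9 to 47.3 CPM in the other 4 ovaries. Fat markers stood at 253 and 202 CPM in Bnc1tr/tr replicates 1 and 2 and at 13.4 to 78.1 CPM elsewhere. The labels do not say whether each library came from a separate animal, so the p-values measure the spread between these libraries.

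The 47 genes together held 434, 482 and 579 CPM in the WT ovaries and 458, 486 and 462 CPM in the Bnc1tr/tr ovaries, and the genotypes overlapped. Ligands made up 88.1% to 94.2% of that sum in each ovary, and 4 of them, Cxcl12, Cxcl14, Ccl21a and Ccl21b, made up 65.3% to 77.8%. The receptors summed to 51.5, 38.9 and 33.7 CPM in WT and 30.9, 48.9 and 38.7 CPM in Bnc1tr/tr ovaries. Levels of different genes were compared per kilobase of the annotated transcript (RPKM, TMM-normalized CPM divided by the length of the GENCODE transcript). Ccl21a came first with a mean of 83.8 RPKM over the 6 ovaries, followed by Cxcl14 at 71.5, Ccl21b at 62.8, Cxcl12 at 21.0, Ccl27a at 10.7 and Cx3cl1 at 9.36 RPKM. The transcript annotated for Ccl21b has only 402 bases, against 870 for Ccl21a, and its level per length is therefore uncertain. Cxcr4 was the highest receptor at 7.25 RPKM and the lowest gene was the eotaxin receptor Ccr3 at 0.0249 RPKM. Cxcr3 stood at 1.24 RPKM in WT, below Cx3cr1 at 2.80 RPKM, and at 4.74 RPKM in Bnc1tr/tr, above Cx3cr1 at 2.51 RPKM.

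**Figure D1:**
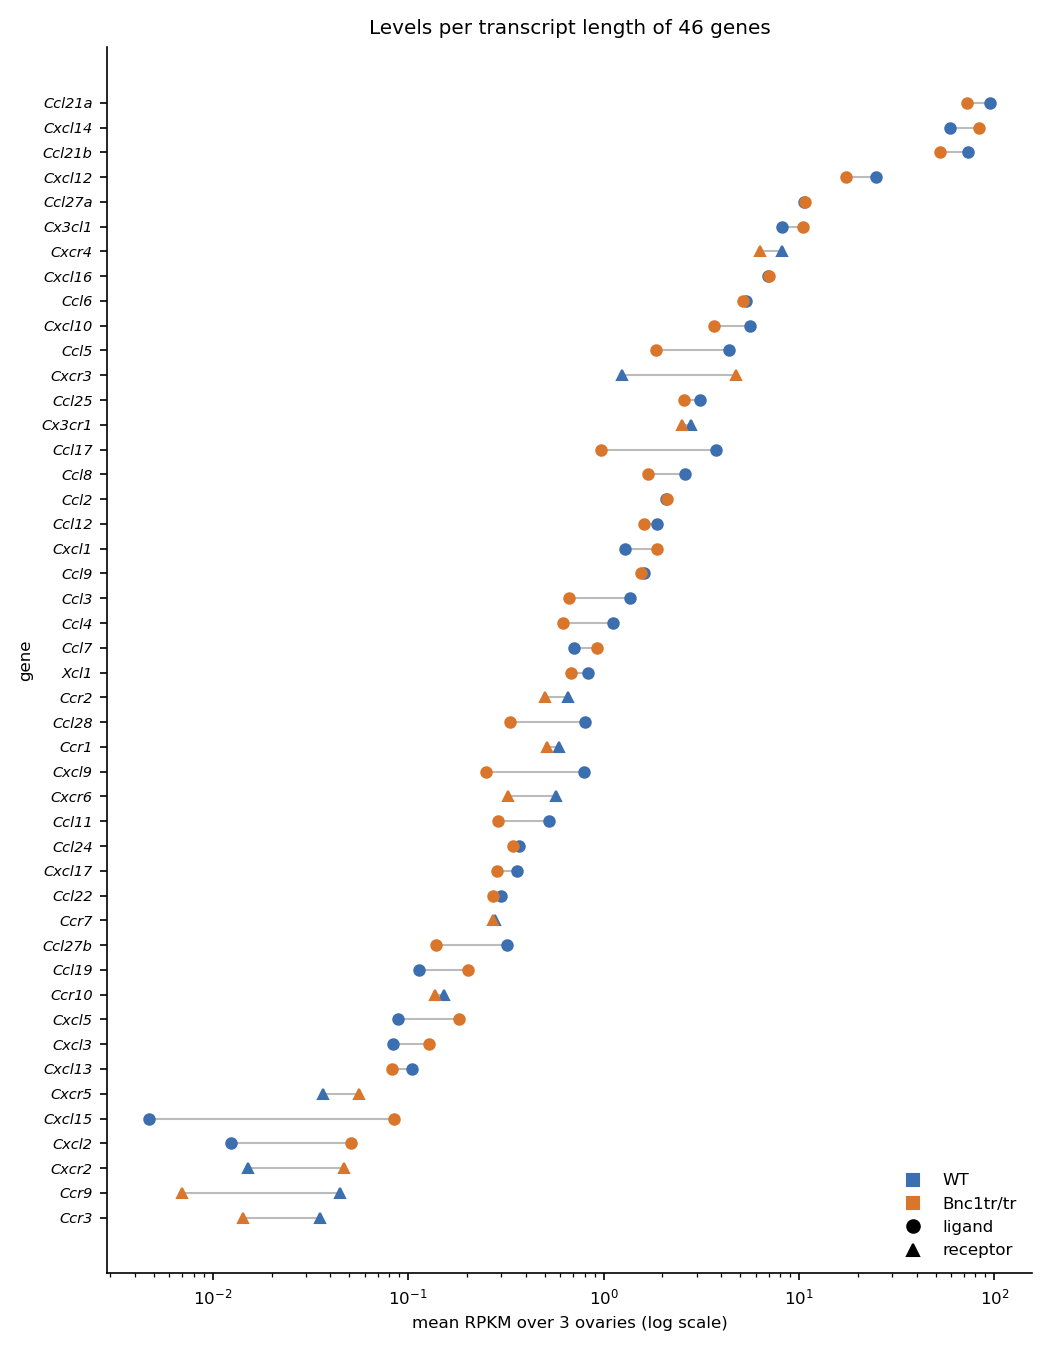
Mean level per transcript length of 46 chemokine and receptor genes (RPKM, log scale) in WT (blue) and Bnc1tr/tr (orange) ovaries, n = 3 each, with ligands as circles and receptors as triangles. The homeostatic ligands Ccl21a, Cxcl14, Ccl21b and Cxcl12 lie at the top and the receptor Ccr3 at the bottom, and Cxcr3 is the receptor with the widest gap among those above 0.1 RPKM, from 1.24 to 4.74 RPKM.

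Of the 47 genes, 34 (26 ligands and 8 receptors) passed the filter on low counts and were tested with edgeR's quasi-likelihood method, together with all other genes that passed it. The 13 genes that did not pass (8 ligands and 5 receptors) had at most 43 counts over the 6 ovaries. Cxcr3 rose and Cxcl9 fell in Bnc1tr/tr ovaries at a Benjamini-Hochberg adjusted p under 0.05. These 2 of 34 genes are 5.88%, while 7.06% of the 19423 genes tested were called, 2.88% as higher and 4.19% as lower. The share of chemokine genes called was thus near that of all genes. Among all 1372 genes called, 59.3% were lower in Bnc1tr/tr, or 35.6% of 1728 with library size in place of TMM. At an unadjusted p under 0.05, 12 of the 34 genes passed, 9 lower and 3 higher, and 24.2% of all genes did. DESeq2 called 7 of the 34 (Cxcr3, Cxcl9, Ccl5, Ccl17, Ccl28, Cxcl14 and Ccl21a) and 12.5% of all genes.

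The log2 fold change (Bnc1tr/tr minus WT) was below 0 for 26 of the 34 genes and above 0 for 8, with a median of -0.28, while 47.4% of all genes tested were below 0 and their median was 0.018. Under library size alone 23 of 34 were below 0 with a median of -0.18, against 34.2% and a median of 0.118 over all genes. Ccl6, Ccl9 and Ccr7 changed sign under that scaling. Without WT replicate 1 the median was -0.13 and without Bnc1tr/tr replicate 2 it was -0.45. The sign of 16 of the 34 genes turned when some 1 ovary was left out, and of the 18 that kept it 15 were below 0. In 13 of the 34 genes (38.2%) every ovary of one genotype lay above every ovary of the other, which was so for 30.8% of all genes. Without overlap, 10 of the 34 were lower in Bnc1tr/tr, as were 15.8% of all genes tested. In the same way 3 of the 34 were higher, as were 15.0% of all genes tested.

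**Figure D2:**
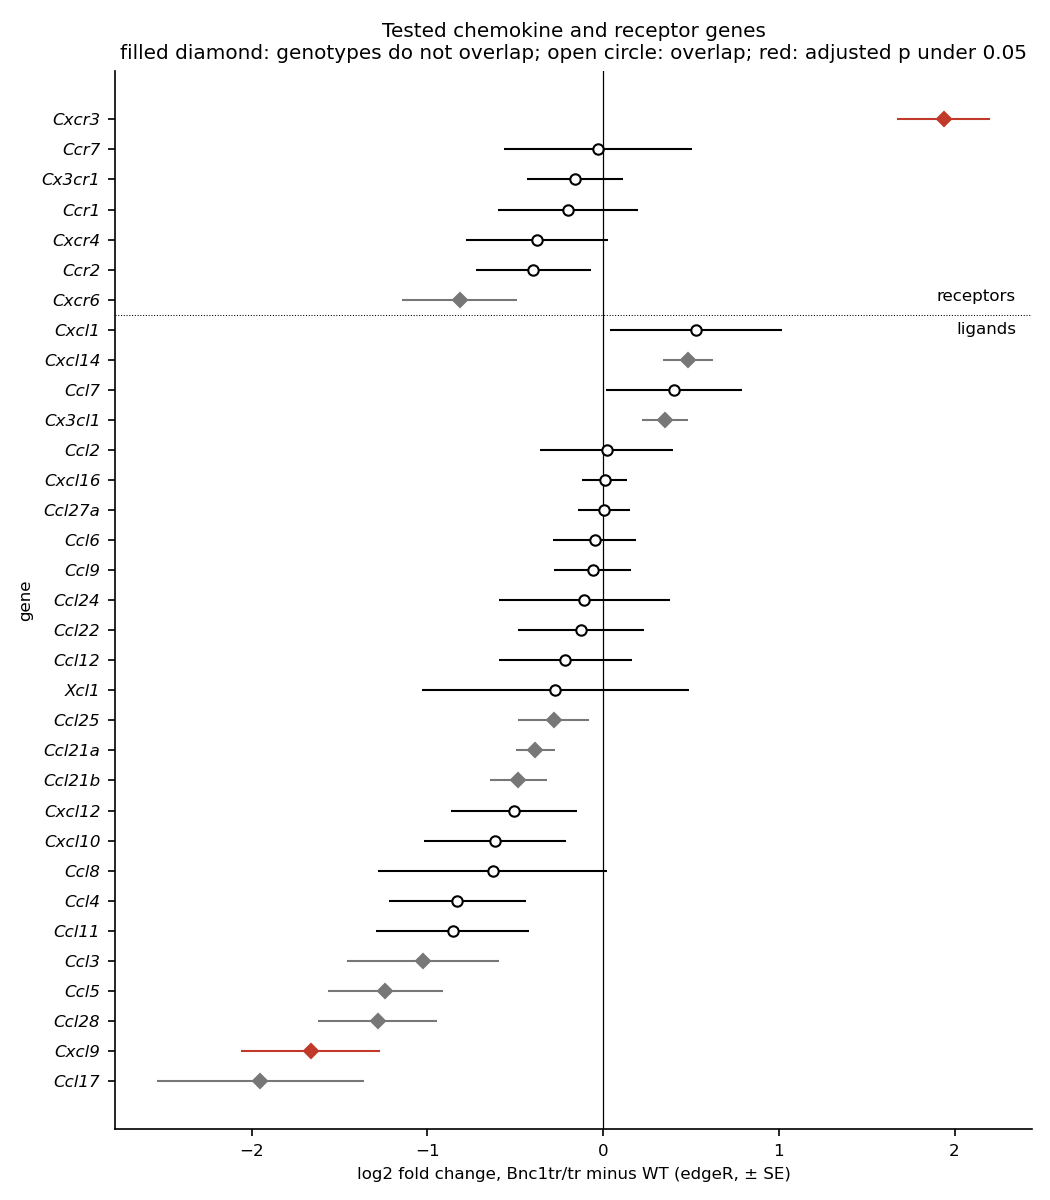
Log2 fold change (Bnc1tr/tr minus WT, ± SE from the edgeR fit) of 33 tested genes, with receptors above and ligands below the dotted line. Cxcr3 (1.94) and Cxcl9 (-1.67), in red, were called, and the filled diamonds mark genes whose genotypes did not overlap.

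Cxcr3, the receptor of activated T cells and natural killer cells, and its interferon-induced ligand Cxcl9 were called in opposite directions. Cxcr3 lay at 2.53, 1.81 and 2.10 CPM in WT replicates 1, 4 and 7 and at 10.8, 5.88 and 7.92 CPM in Bnc1tr/tr replicates 1, 2 and 3, from 60 to 68 and from 153 to 305 counts. Every Bnc1tr/tr ovary lay above the highest WT ovary, and Bnc1tr/tr replicate 1 was the highest. The mean was 2.15 ± 0.359 CPM in WT and 8.21 ± 2.49 CPM in Bnc1tr/tr (SD, n = 3), a log2 fold change of 1.94 ± 0.27 (SE), or 3.83-fold, with an edgeR adjusted p of 0.00689. Without WT replicate 4 the adjusted p was 0.0522, at a log2 fold change of 1.82. Summed T cell markers were lower in each Bnc1tr/tr ovary (8.74 to 12.4 CPM) than in each WT ovary (13.1 to 20.4 CPM), and Lck alone gave 4.26 to 7.96 CPM and 8.45 to 12.0 CPM of these. None of the 6 tested T cell markers was called, and their log2 fold changes ran from -1.16 (Cd3d) to 0.28 (Cd247). Summed markers of natural killer cells were 2.91 to 3.04 CPM in Bnc1tr/tr and 2.83 to 3.82 CPM in WT. None of 3 tested natural killer cell markers was called, with log2 fold changes of -0.58 (Gzma) to 0.71 (Prf1). The part of these cells in the Cxcr3 level was not tested. In whole ovaries, more cells of a type and more RNA per cell cannot be told apart.

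Cxcl9 lay at 2.45, 2.87 and 1.55 CPM in WT and at 0.817, 0.961 and 0.387 CPM in Bnc1tr/tr ovaries, from 45 to 95 and from 11 to 25 counts. Every Bnc1tr/tr ovary was below the lowest WT ovary. The mean was 2.29 ± 0.673 CPM in WT and 0.722 ± 0.299 CPM in Bnc1tr/tr, a log2 fold change of -1.67 ± 0.39, 3.17-fold lower, with an edgeR adjusted p of 0.0461. That call was close to the threshold, since the adjusted p was 0.0578 to 0.182 when any 1 ovary was left out. Cxcl10, the neighbouring gene and another interferon-induced ligand of Cxcr3, lay at 7.58, 6.25 and 4.69 CPM in WT and at 6.75, 2.19 and 3.10 CPM in Bnc1tr/tr. Bnc1tr/tr replicate 1 lay within the WT range and the other Bnc1tr/tr ovaries lay below it, and the log2 fold change of -0.62 ± 0.40 did not pass the test (edgeR adjusted p = 0.395). It was -1.22 without Bnc1tr/tr replicate 1 (adjusted p = 0.0573) and -0.33 without Bnc1tr/tr replicate 2. Part of the Cxcl10 exons, 133 bases, is shared with exons of Art3, and strand was not known to be used in counting. The third ligand of Cxcr3, Cxcl11, had 4 counts in all and was not among the 47 genes.

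The sequences before the start sites of Cxcl9, Cxcl10 and Cxcr3 are shown because these genes share the interferon axis but were called in different directions or not at all, and that of Cxcl14 because it is the most abundant ligand whose genotypes did not overlap with a higher level in Bnc1tr/tr. Each is the 250 bases before the RefSeq start site (GRCm38.p6), read 5′ to 3′ on the strand of the gene. Capitals mark matches, on either strand, to the core of an interferon-stimulated response element (GAAANNGAA), an interferon gamma activated site (TTCNNNGAA), a TATA box (TATAAA) or the NF-κB consensus.
Cxcl9, chr5:92328080-92328329, minus strand: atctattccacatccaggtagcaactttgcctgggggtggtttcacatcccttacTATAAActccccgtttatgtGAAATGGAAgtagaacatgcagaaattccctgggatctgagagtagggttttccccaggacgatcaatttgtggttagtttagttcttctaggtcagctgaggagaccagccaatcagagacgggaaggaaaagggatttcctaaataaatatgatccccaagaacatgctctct
Cxcl10, chr5:92348890-92349139, minus strand: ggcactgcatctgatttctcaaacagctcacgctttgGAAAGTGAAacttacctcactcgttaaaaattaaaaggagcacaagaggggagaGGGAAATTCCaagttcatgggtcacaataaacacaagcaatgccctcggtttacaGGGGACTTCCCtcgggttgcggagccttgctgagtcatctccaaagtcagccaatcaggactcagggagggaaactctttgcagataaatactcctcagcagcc
Cxcl14, chr13:56296552-56296801, minus strand: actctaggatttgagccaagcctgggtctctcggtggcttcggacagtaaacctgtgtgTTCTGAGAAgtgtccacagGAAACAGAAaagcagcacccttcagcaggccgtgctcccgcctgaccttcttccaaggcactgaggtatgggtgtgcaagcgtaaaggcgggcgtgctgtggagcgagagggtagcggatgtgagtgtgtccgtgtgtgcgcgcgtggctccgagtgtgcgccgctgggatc
Cxcr3, chrX:101734148-101734397, minus strand: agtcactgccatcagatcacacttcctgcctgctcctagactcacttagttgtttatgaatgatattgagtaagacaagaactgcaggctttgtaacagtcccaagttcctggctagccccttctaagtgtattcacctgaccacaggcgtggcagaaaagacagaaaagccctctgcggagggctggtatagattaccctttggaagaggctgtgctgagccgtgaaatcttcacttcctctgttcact
In the Cxcl9 window the response element core, GAAATGGAA, lay at -175 to -167, counted from the start site, and a TATAAA lay at -195 to -190. The Cxcl10 window held the core GAAAGTGAA at -213 to -205 and 3 matches to the NF-κB consensus, of which those that begin at -104 and -103 overlap. Cxcl14 had TTCTGAGAA at -191 to -183 and GAAACAGAA at -172 to -164, and none of these letters were in the Cxcr3 window. The Cxcr3 window begins at 101734148 while the GENCODE gene reaches 101734269, so part of that window lies within the annotated gene. Bases further before the GENCODE start were not searched. Of 32851 RefSeq promoter windows, 7.13% held GAAANNGAA, 7.02% TTCNNNGAA, 7.25% the NF-κB consensus and 12.4% TATAAA. Windows were found for 34 of the 47 genes, of which 6, 2, 7 and 11 genes held these motifs in the same order. These 34 genes had 40 windows, and a gene was counted if any of its windows held the motif. The gene counts are therefore not in the same unit as the shares of windows. The 6 genes with GAAANNGAA were Cxcl9, Cxcl10, Cxcl14, Ccl3, Ccl19 and Ccr2, and Cxcl9 was the only one of them called.

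Ccl17, a ligand of Ccr4 that is known from dendritic cells and macrophages, had the largest fitted decrease of the 34 genes but did not pass the test. It lay at 1.93, 2.66 and 1.21 CPM in WT and at 0.107, 0.577 and 0.810 CPM in Bnc1tr/tr, where replicate 1 had 3 counts. The genotypes did not overlap. Summed dendritic cell markers were 50.5 to 55.7 CPM in WT and 45.5 to 49.2 CPM in Bnc1tr/tr, most of it Zbtb46. None of the 5 markers, which include Ccr7, was called, with log2 fold changes of -0.44 (Clec9a) to 0.67 (Flt3). The part of dendritic cells in the Ccl17 level was not tested. The log2 fold change of Ccl17 was -1.95 ± 0.59 (edgeR adjusted p = 0.0916). Ccl22, the other Ccr4 ligand, encoded in the same cluster on chromosome 8, had a log2 fold change of -0.12 with overlapping genotypes, or 0.07 without Bnc1tr/tr replicate 2. Ccr4 had 8 counts in all and Ccr8 had 3, so both receptors were below the limit of 10 counts, as was Ccl1 with 6, a ligand of Ccr8.

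The inflammatory CC ligands Ccl3, Ccl4, Ccl5, Ccl6, Ccl9, Ccl11 and Ccl24 included no gene that was called, and neither did their receptors Ccr1 and Ccr3. All 7 ligands had a log2 fold change below 0, from -1.24 to -0.05, or 5 of 7 under library size alone, where Ccl6 and Ccl9 were above 0, and 4 of 7 without Bnc1tr/tr replicate 1, where Ccl24 was above 0 too, and 5 to 7 of 7 without any other ovary. Ccl5, known from activated T cells and natural killer cells, lay at 3.19, 2.14 and 1.69 CPM in WT and at 1.10, 0.731 and 1.13 CPM in Bnc1tr/tr. Its genotypes did not overlap, with a log2 fold change of -1.24 ± 0.33 (edgeR adjusted p = 0.0631). Ccl3, a macrophage ligand of Ccr1, lay at 1.67, 0.755 and 0.724 CPM in WT and at 0.640, 0.538 and 0.352 CPM in Bnc1tr/tr. The gap between the genotypes was narrow and WT replicate 1 stood above the rest, and the log2 fold change of -1.03 ± 0.43 did not pass (edgeR adjusted p = 0.197). Ccl4, Ccl6, Ccl9, Ccl11, Ccl24 and Ccr1 overlapped between the genotypes, with log2 fold changes of -0.85 (Ccl11, an eotaxin) to -0.05 (Ccl6), and Ccr3 was not tested. Summed macrophage markers were 602 to 649 CPM in WT and 417, 815 and 463 CPM in Bnc1tr/tr replicates 1, 2 and 3, with none of 13 called. Of these 13 markers, 11 had a log2 fold change below 0, with a median of -0.14. The part of macrophages in the levels of these ligands was not tested.

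The ligands of the monocyte receptor Ccr2 (Ccl2, Ccl7, Ccl8 and Ccl12) and Ccr2 itself did not pass the test. Log2 fold changes ran from -0.63 for Ccl8 to 0.40 for Ccl7, 3 of 5 were below 0, and the lowest edgeR adjusted p was 0.506. These signs turned with single ovaries, and 5 of 5 were below 0 without Bnc1tr/tr replicate 1, where Ccl7 was at -0.04, and 2 of 5 without WT replicate 1, where Ccl8 was at 0.22. It was also 2 of 5 without WT replicate 7 or without Bnc1tr/tr replicate 2. Ccl2, the main monocyte attractant, was at 1.70 ± 0.530 CPM in WT and 1.72 ± 0.723 CPM in Bnc1tr/tr (SD, n = 3). Ccl8 varied most within WT, from 0.551 CPM in replicate 7 to 2.56 CPM in replicate 1.

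The ligands of Ccr7, which bring dendritic cells and naive T cells into lymphoid tissue, were led by Ccl21a and Ccl21b, and neither passed the test. Lymphatic endothelium is 1 known source of Ccl21, though not the only one. Ccl21a lay at 72.8, 96.3 and 78.7 CPM in WT and at 63.6, 60.8 and 65.3 CPM in Bnc1tr/tr. Ccl21b lay at 31.6, 27.8 and 28.9 CPM in WT and at 23.4, 15.7 and 24.0 CPM in Bnc1tr/tr. Both lay lower in every Bnc1tr/tr ovary, with log2 fold changes of -0.39 ± 0.11 (edgeR adjusted p = 0.0852) and -0.48 ± 0.16 (0.122). These genes are near-identical copies, and 400 of 402 bases of the Ccl21b transcript match Ccl21a, so reads could be assigned to either. Further copies on chromosome 4 were listed with opposite patterns between ovaries, since Gm10591 had 908, 1004 and 210 counts in WT and 265, 258 and 825 in Bnc1tr/tr, and Gm21541 had 240, 447 and 258 in WT and 747, 820 and 290 in Bnc1tr/tr. Summed over the 5 copies with counts (Ccl21a, Ccl21b, Gm13304, Gm10591 and Gm21541), the level was 169, 185 and 176 CPM in WT and 140, 139 and 157 CPM in Bnc1tr/tr. The sum was closer between ovaries than the single copies Gm10591 and Gm21541 and remained lower in each Bnc1tr/tr ovary, by -0.28 ± 0.085 on the log2 scale (edgeR adjusted p = 0.0897). Summed lymphatic endothelium markers were at 113 to 129.8 CPM in WT and 129.9 to 144 CPM in Bnc1tr/tr, higher by a very narrow gap. Of the 4 tested, Lyve1 and Pdpn were called higher and 1 marker had a log2 fold change below 0. The part of these cells in the Ccl21 levels was not tested. Ccr7 had a log2 fold change of -0.03 ± 0.54 and overlapping genotypes, and Ccl19, the other Ccr7 ligand, had 21 counts in all.

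Cxcl12, the stromal ligand that draws and retains stem cells, lay at 84.4, 107 and 224 CPM in WT and at 69.8, 118 and 105 CPM in Bnc1tr/tr. WT replicate 7 stood above all other ovaries and the rest overlapped. The log2 fold change of -0.51 ± 0.36 (edgeR adjusted p = 0.436) became 0.020 without WT replicate 7, so its sign rested on that ovary. Its receptor Cxcr4 lay at 20.4, 15.7 and 8.20 CPM in WT and at 5.93, 15.4 and 12.8 CPM in Bnc1tr/tr. WT replicate 7, highest for the ligand, was the lowest WT ovary for the receptor, and the log2 fold change of -0.37 ± 0.40 did not pass (edgeR adjusted p = 0.619). Ackr3, an atypical receptor that takes up Cxcl12 without G protein signalling, was at 32.1 ± 0.925 CPM in WT and 33.1 ± 6.54 CPM in Bnc1tr/tr.

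Cxcl14, a conserved ligand without a settled receptor that is known from epithelia and stroma, lay at 94.4, 114 and 118 CPM in WT and at 183, 138 and 136 CPM in Bnc1tr/tr. Each Bnc1tr/tr ovary lay above each WT ovary. The mean was 109 ± 12.7 CPM in WT and 152 ± 26.6 CPM in Bnc1tr/tr, 1.40-fold, a log2 fold change of 0.48 ± 0.14 (edgeR adjusted p = 0.0851). It passed with library size in place of TMM (adjusted p = 0.048) and with DESeq2 (0.0213). Summed stroma and theca markers were also higher in each Bnc1tr/tr ovary, with none of 6 called. They lay at 1190, 1045 and 1014 CPM in WT and at 1353, 1652 and 1507 CPM in Bnc1tr/tr, in the same order of replicates. Within each genotype the ovaries ranked differently for these markers than for Cxcl14. The part of these cells in the Cxcl14 level was not tested. Cxcl17, a ligand of mucosal tissues, had 41 counts in all.

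Cx3cl1 and Cxcl16 are anchored in the membrane and hold leukocytes that carry Cx3cr1 or Cxcr6. Cx3cl1 lay at 27.6, 26.1 and 28.2 CPM in WT and at 28.4, 40.3 and 35.7 CPM in Bnc1tr/tr. Bnc1tr/tr replicate 1 lay only just above WT, and the log2 fold change of 0.35 ± 0.13 had an edgeR adjusted p of 0.156, or 0.0394 without that ovary. Cxcr6, the receptor of resident T cells and natural killer T cells, lay at 1.41, 1.15 and 0.724 CPM in WT and at 0.533, 0.654 and 0.669 CPM in Bnc1tr/tr, without overlap. Its log2 fold change was -0.82 ± 0.33 (edgeR adjusted p = 0.178). Cxcl16 was at 18.8 ± 1.01 and 18.9 ± 2.83 CPM and Cx3cr1, a receptor of monocytes and tissue macrophages, at 12.6 ± 1.70 and 11.3 ± 4.68 CPM in WT and Bnc1tr/tr (SD, n = 3), both with overlap. Cxcl16 shares 552 exon bases with Zmynd15.

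The epithelial CC ligands Ccl25, Ccl27a, Ccl27b and Ccl28 are known from thymus, gut and skin. Ccl28, a mucosal ligand of Ccr10, lay at 3.27, 3.38 and 2.41 CPM in WT and at 0.924, 0.923 and 1.87 CPM in Bnc1tr/tr. The genotypes did not overlap, and Bnc1tr/tr replicate 3, the ovary with the most oviduct markers, was the highest of its genotype. WT replicate 1, next in oviduct markers, lay below WT replicate 4. The part of oviduct RNA in the Ccl28 level was not tested. The log2 fold change of Ccl28 was -1.28 ± 0.34 (edgeR adjusted p = 0.0639). Without Bnc1tr/tr replicate 3 it was -1.71, with an edgeR adjusted p of 0.030. Ccl25, the thymic ligand of Ccr9, lay at 3.19, 3.65 and 3.07 CPM in WT and at 2.31, 3.0 and 2.85 CPM in Bnc1tr/tr, a narrow gap with a log2 fold change of -0.28 ± 0.20 (edgeR adjusted p = 0.445). Ccl27a was at 8.96 ± 1.11 CPM in WT and 8.99 ± 0.762 CPM in Bnc1tr/tr. Its copy Ccl27b, which matches it in 320 of 324 aligned bases, was not tested. Ccr9 had 10, 4 and 6 counts in WT and 0, 1 and 2 in Bnc1tr/tr. Its mean WT level was 2.13-fold that of a floor of 3 counts per Bnc1tr/tr library. That ratio leaves out the counting error in WT and the spread between ovaries, so it is not a firm lower limit. That gene was not tested, and 2223 bases of its exons overlap those of Slc6a20a and 2 further genes. Ccr10 was not tested, and Ccr6 and its ligand Ccl20 had 2 and 0 counts.

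Neutrophil-attracting CXC ligands were scarce. Cxcl1, the only tested gene among Cxcl1, Cxcl2, Cxcl3, Cxcl5, Cxcl15 and the receptor Cxcr2, was at 1.23 ± 0.459 CPM in WT and 1.78 ± 1.09 CPM in Bnc1tr/tr (log2 fold change 0.53 ± 0.49, edgeR adjusted p = 0.557). It was at -0.06 without Bnc1tr/tr replicate 1, which held 84 counts. The neutrophil marker Ly6g had no count in any ovary, and summed neutrophil markers were 3.98 to 5.44 CPM in WT and 2.59 to 5.35 CPM in Bnc1tr/tr. Cxcl15 had 11 of its 16 counts in Bnc1tr/tr replicate 3, the ovary with the most oviduct markers. It had 4 in Bnc1tr/tr replicate 2 and 0 in WT replicate 1, the ovary next in oviduct markers. The part of oviduct RNA in these counts was not tested. Cxcl13 and Cxcr5, which form B cell follicles, had 19 and 22 counts in all and were not tested. Xcl1, the C ligand of natural killer and cytotoxic T cells, ranged from 0.181 to 0.854 CPM in WT and from 0.0711 to 0.538 CPM in Bnc1tr/tr, with a log2 fold change of -0.27 ± 0.76. That became 0.63 without WT replicate 1 and 0.21 without Bnc1tr/tr replicate 1.

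**Figure D3:**
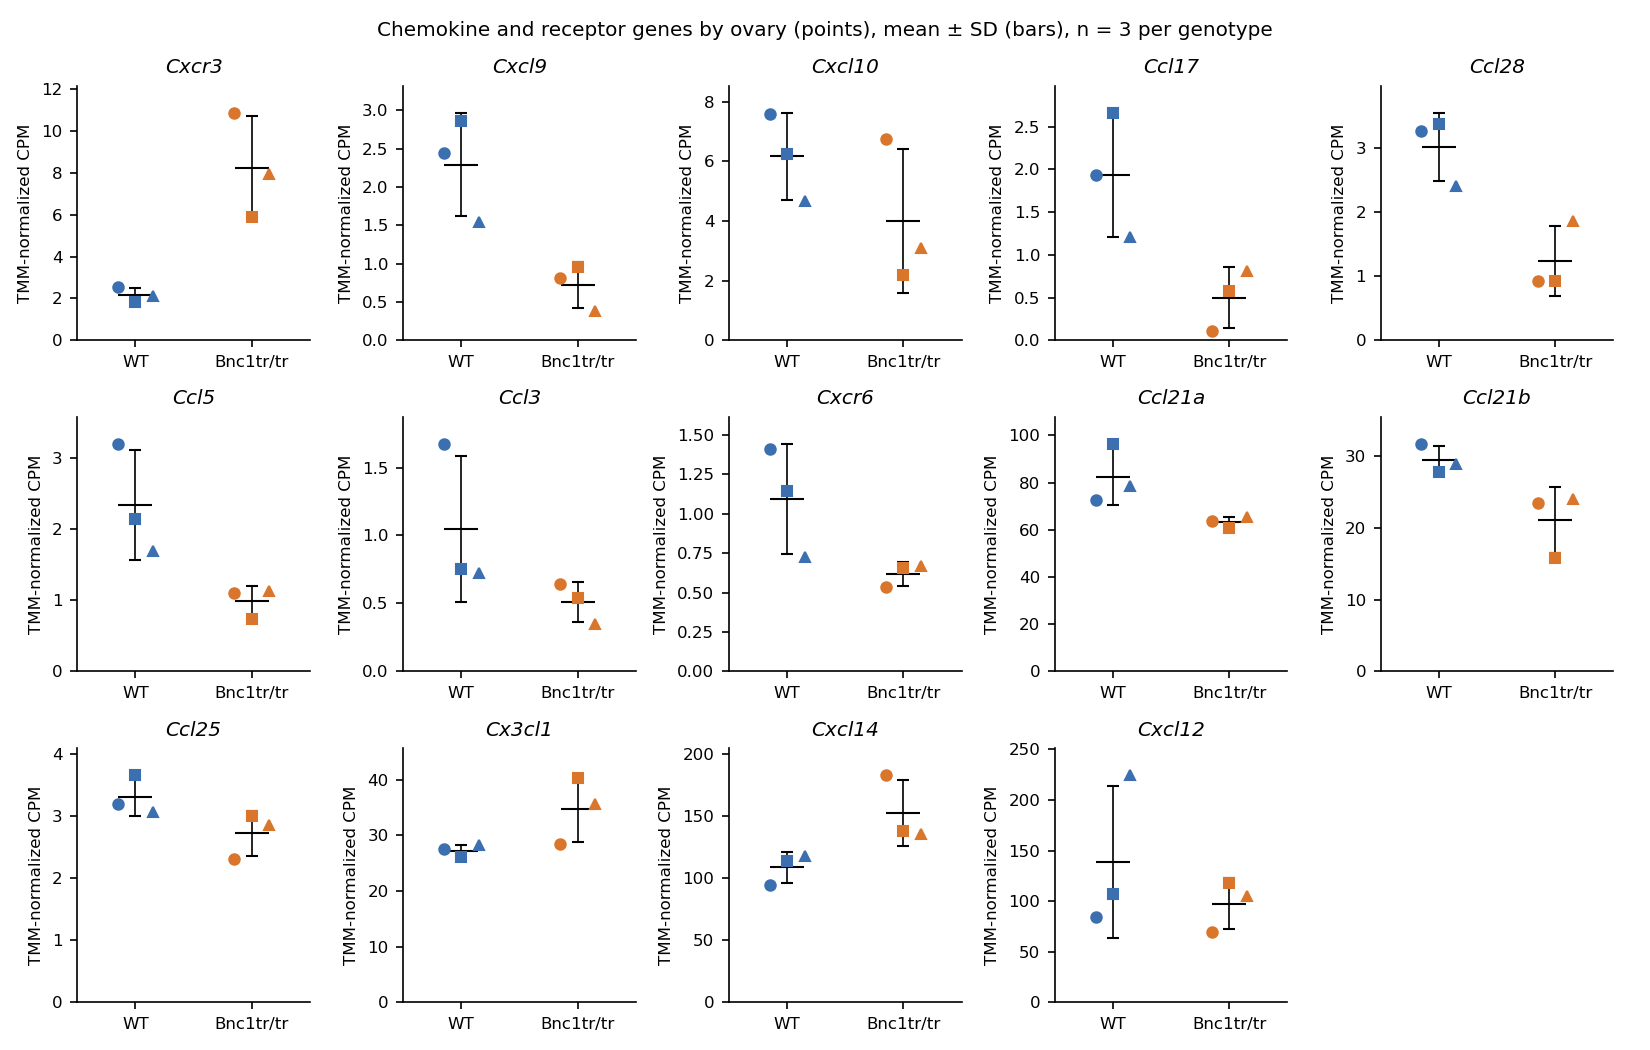
Level of 14 chemokine and receptor genes in each ovary (TMM-normalized CPM), with circle, square and triangle for replicates 1, 4 and 7 (WT, blue) and 1, 2 and 3 (Bnc1tr/tr, orange), and mean ± SD as bars. Cxcr3, Cx3cl1 and Cxcl14 lie above WT in every Bnc1tr/tr ovary, Cxcl10 and Cxcl12 overlap, and the other 9 genes lie below WT. Genes without overlap were favoured for this figure. Of the 34 genes tested, 13 did not overlap, against 30.8% of all genes.

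Many of these genes are neighbours in the genome, and 31 of the 47 lay in 7 clusters with gaps of at most 1 Mb (GRCm38, GENCODE). The group of Ccl5, Ccl9, Ccl6, Ccl3 and Ccl4 on chromosome 11 (83525778 to 83664683) had log2 fold changes of -1.24 to -0.05, all 5 below 0, or 3 of 5 under library size alone, without WT replicate 4 or without Bnc1tr/tr replicate 1. The group of Ccl2, Ccl7, Ccl11, Ccl12 and Ccl8 on the same chromosome (82035571 to 82116799) had 3 of 5 below 0, or 5 of 5 without Bnc1tr/tr replicate 1 and 2 of 5 without WT replicate 1, WT replicate 7 or Bnc1tr/tr replicate 2. On chromosome 9, which holds Ccr9, Cxcr6, Ccr1, Ccr3 and Ccr2, the tested receptors Cxcr6, Ccr1 and Ccr2 were below 0 under TMM, RLE and library size scaling, at -0.82, -0.20 and -0.40 under TMM, and Ccr1 was at 0.06 without Bnc1tr/tr replicate 1. Cxcl9 and Cxcl10 adjoin on chromosome 5 (92321347 to 92348889), and Ccl17, Ccl22 and Cx3cl1 lie together on chromosome 8 (94745590 to 94812036), where the genotypes did not overlap for Ccl17, lower in Bnc1tr/tr, and Cx3cl1, higher in Bnc1tr/tr. Cxcr3, the only chemokine or receptor gene called as higher, lies alone on chromosome X (101731535 to 101734269, minus strand).

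Genes that handle chemokines or pass on their signal, 45 in a list that holds none of the 47, included 6 of 43 tested genes that were called (14.0%, against 7.06% of all genes), 1 higher and 5 lower. The list was written with earlier results of these data known, so its share cannot be read as a result about the pathway. Plcb2, a phospholipase activated by G protein subunits in leukocytes, lay at 68.9, 79.1 and 66.5 CPM in WT and at 6.64, 14.5 and 14.2 CPM in Bnc1tr/tr. That fall of 2.60 ± 0.27 on the log2 scale (edgeR adjusted p = 0.00299) was called under all 12 alternatives. Ccrl2, which binds chemerin and presents it to other cells, fell from 18.6, 26.7 and 35.8 CPM to 9.45, 11.7 and 8.52 CPM (log2 fold change -1.45, edgeR adjusted p = 0.0143). Gpr182, an atypical receptor of endothelium, fell from 14.4 ± 4.66 CPM to 7.11 ± 0.799 CPM (edgeR adjusted p = 0.0432). Summed endothelial markers were 520 to 696 CPM in WT and 347 to 390 CPM in Bnc1tr/tr, and 4 of 6 were called lower. The part of endothelium in the Gpr182 level was not tested. Gnb1, a G protein subunit, fell by 0.32 on the log2 scale (edgeR adjusted p = 0.0489). Rgs2, which turns off G proteins, rose from 196, 167 and 156 CPM to 351, 254 and 303 CPM (log2 fold change 0.81, edgeR adjusted p = 0.0166). The calls of Gpr182 and Gnb1 were lost in 7 and 8 of 12 alternatives, those of Ccrl2 and Rgs2 in 2 and 3. The atypical receptors Ackr1 (listed as Darc), Ackr2, Ackr3 and Ackr4 had log2 fold changes of -1.06, -0.19, 0.04 and -0.13, and none was called.

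**Figure D4:**
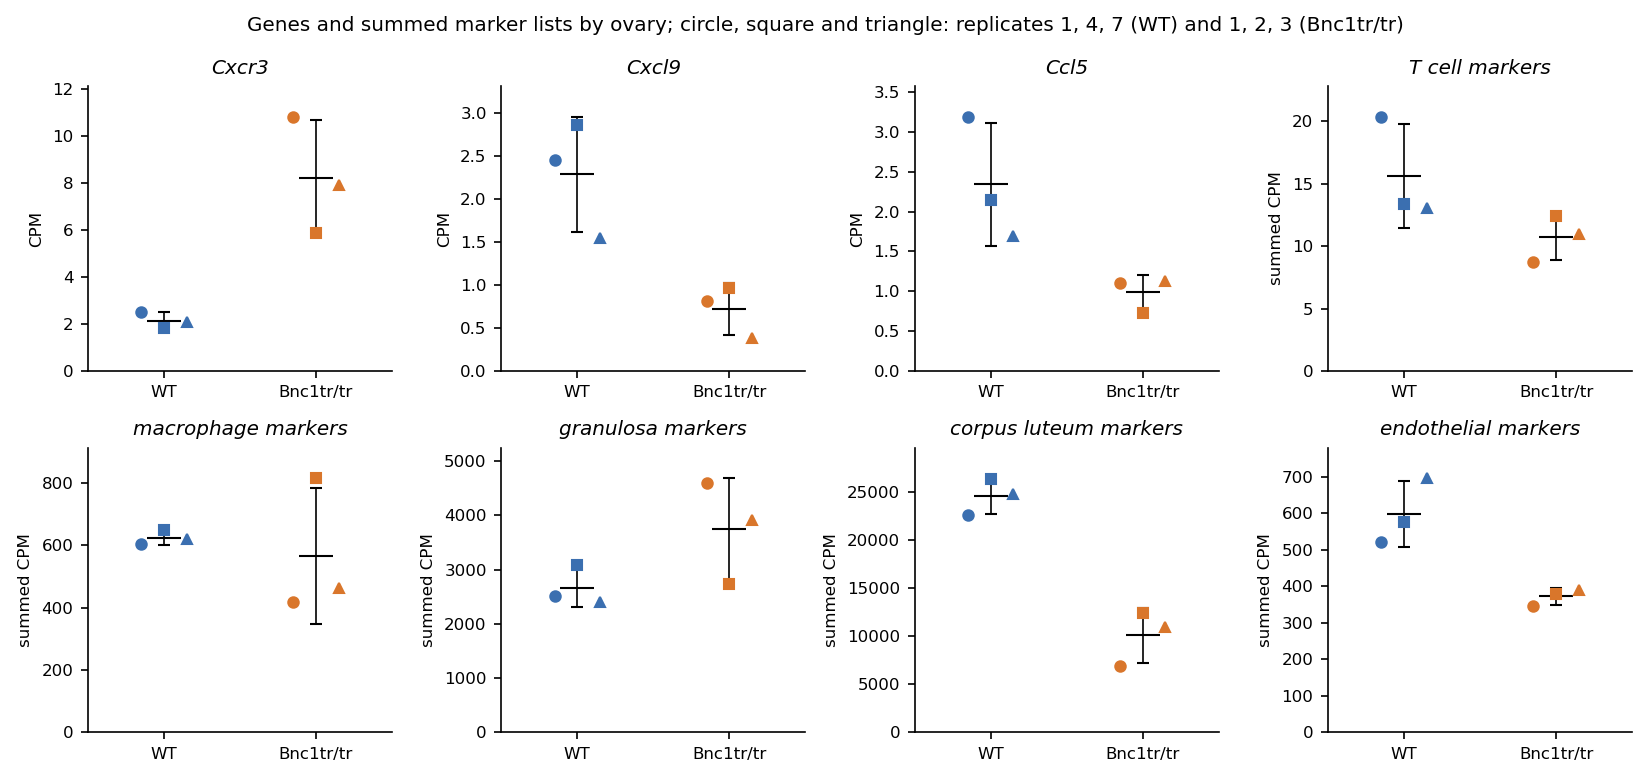
Cxcr3, Cxcl9 and Ccl5 (CPM) beside summed marker lists (summed CPM) in each ovary, with circle, square and triangle for replicates 1, 4 and 7 (WT, blue) and 1, 2 and 3 (Bnc1tr/tr, orange), and mean ± SD as bars. The sums of T cell, corpus luteum and endothelial markers lie lower in every Bnc1tr/tr ovary, whereas macrophage and granulosa cell markers overlap between the genotypes.

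General leukocyte markers summed to 106 to 113 CPM in WT and 85.0, 133 and 86.5 CPM in Bnc1tr/tr, with none of 7 called. B cell markers summed to 3.65 to 5.16 CPM in WT and 4.89 to 5.33 CPM in Bnc1tr/tr. Pax5 was called higher, while 3 of the 5 had a log2 fold change below 0, with a median of -0.02. Granulosa cell markers summed to 2404 to 3079 CPM in WT and 2731 to 4589 CPM in Bnc1tr/tr, with 1 of 6 called higher and 3 below 0. Oocyte markers summed to 452 to 598 CPM in WT and 590 to 912 CPM in Bnc1tr/tr, with 3 of 8 called higher. The part of these cell types in the chemokine levels was not tested.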

How the data were processed

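RNA of whole ovaries (TRIzol) was sequenced with an Ion Proton kit. Raw read counts per gene symbol, 1 column per library and without normalization, were deposited by the authors. The submitters' processing notes name the builds mm10 and Sscrofa10.2 with no role for either, and the symbols are those of mouse. The aligner, counting tool, annotation and use of strand are not given in the sources used here, so reads of overlapping genes and near-identical copies could have gone to either.

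Counts were filtered with filterByExpr (minimum count 10), scaled by TMM and compared by the two-sided quasi-likelihood test of edgeR 4.0.16 under R 4.3.3. P-values were adjusted by Benjamini-Hochberg over 19423 genes, with a threshold of 0.05. The code was tested on simulated counts. Libraries of a genotype were not duplicates (chi-square per degree of freedom of 17.0 to 64.4 between them). Alternatives were RLE or library size scaling, no filter, at least 10 counts in every ovary, DESeq2 1.42.0, limma-voom (limma 3.58.1), leaving out each ovary, an absolute log2 fold change over 0.5 and unadjusted p. The sum of Ccl21 copies was added after seeing the data. Positions, lengths and exon overlaps came from GENCODE M21 and promoters from RefSeq, both GRCm38.

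The genes and the hand-written lists were chosen with earlier results of these data known. Genes that are not reported here are counted but not named. Every other chemokine gene is named, with values per ovary for genes called, genes without overlap, the 5 highest mean CPM and the 5 largest absolute log2 fold changes. Of the signalling list, the other genes called and atypical receptors are named. RefSeq synonyms matched 4 symbols of the lists.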

Additional observations from a re-analysis of the deposited data

How the results depend on the processing

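For the 34 chemokine genes tested, the median log2 fold change of -0.28 stayed below 0 under all 12 alternatives that give it, at -0.45 to -0.13 when 1 ovary was left out. The number of these genes called as higher was 1, and became 2 with library size alone, 2 with DESeq2, 3 at an unadjusted p under 0.05 and 0 to 2 without 1 ovary. The number called as lower was 1, and became 5 with DESeq2, 2 with limma-voom, 9 at an unadjusted p under 0.05 and 0 to 1 without 1 ovary. Without WT replicate 4 neither Cxcr3 nor Cxcl9 was called. Over all genes 1372 were called, 2420 with DESeq2, 4698 at an unadjusted p under 0.05 and 320 to 1282 without 1 ovary. The 6 called genes of the signalling list became 1 to 5 without 1 ovary, and 8 with DESeq2. Cxcl12 went from -0.51 to between -0.77 and 0.020 without 1 ovary, and was above 0 without WT replicate 7, whose level stood above the rest. Ccl28 was called under 3 of 12 alternatives (DESeq2, limma-voom and without Bnc1tr/tr replicate 3) and Cxcl14 under 2. Fewer ovaries give less power by construction. Library size scaling moved the median of all genes from 0.018 to 0.118. The paper states that littermates were compared throughout. No paired analysis was possible, because the labels do not say which libraries share a litter. The 13 chemokine genes under the filter had at most 43 counts, and none of them was called when the filter was dropped.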
